A study of Saccharomyces cerevisiae BY4741 with 2 samples.

Results

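The genes of the yeast processome and of pre-60S assembly were taken from the count table as the rows whose standard name in the R64 annotation is UTP, NOC, NSA, RPF, ENP, NOG, NUG, RIX, RLP, IPI or TSR followed by a number. The rule found 40 genes among 7134 rows, 20 of them with a UTP or ENP name and 20 with another name, and it used names only. Sense-strand reads had been counted in rRNA-depleted total RNA of the budding yeast Saccharomyces cerevisiae, with 2 libraries per strain. The wild type was BY4741 (MATa, his3Δ1, leu2Δ0, met15Δ0, ura3Δ0). The other strain was MATa with DBP2 replaced by KanMx, which removes a DEAD-box RNA helicase of nuclear RNA, and it also carried ura3Δ0, leu2Δ0, his3Δ0, TRP1, met- and lysΔ. Both strains lacked URA3, LEU2 and a working HIS3 by their labels, and both were grown at 30°C in rich medium with 2% glucose to mid-log phase. The auxotrophic markers differ between the strains, so the deletion and these alleles cannot be told apart. The comparison asks how the RNA levels of the assembly factors differ once DBP2 is missing.

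Ribosome assembly starts in the nucleolus on the growing pre-rRNA. The UTP-A, UTP-B and UTP-C modules, the U3 snoRNA particle and single factors fold the 5′ part of the transcript into the small-subunit processome, a 90S particle from which the pre-40S particle is released. The 3′ part is packed into pre-60S particles, which GTPases, AAA-ATPases and placeholder proteins remodel on their way to the cytoplasm. In yeast the genes of these factors form the ribosome biogenesis regulon, whose promoters are known for the PAC and RRPE elements. Repressors that bind these elements switch the regulon off when growth slows.

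The libraries held 10860000 and 12586037 counts in wild type against 36028173 and 24961576 in the deletion strain, so depth moved with strain. The columns number the deletion libraries 2 and 3, and these numbers serve as names. DBP2, the deleted gene by the labels, was far lower in the deletion libraries, with 7320 and 9662 counts in wild type against 66 and 237. Some counts remained, more of them in deletion 3, the shallower library, and their source was not tested. LYS2 had 2373 and 2809 counts against 8 and 5, MET17 (MET15) had 8 and 1 against 1772 and 1243, and HIS3 had 94 and 101 against 1158 and 751 (2.74-fold higher), although the labels give the deletion strain as his3Δ0. Across the 6124 features tested, log2 values of CPM + 1 correlated at 0.986 and 0.987 within the strains and at 0.896 to 0.925 between them. Over the 40 genes, libraries of the same strain differed beyond counting error (chi-square divided by its degrees of freedom was 23.3 for wild type and 32.1 for the deletion), so each library was kept as a sample of its own. The labels do not say that the libraries of a strain were separate cultures, and p-values measure the spread between these libraries only. Levels below are counts divided by library sizes that were scaled with trimmed-mean (TMM) factors, expressed as CPM, and different genes are compared per kb of coding sequence.

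What the genes share beyond their names was visible in their promoters. The window from 250 bases before the start codon to the first 50 coding bases was searched on both strands in the R64 genome for PAC (GCGATGAG) and RRPE (AAAAATTT). PAC was found in 19 of the 40 windows (47.5%), against 236 of 6001 protein-coding genes (3.93%), and RRPE in 35 of 40 (87.5%), against 849 (14.1%). Both were found in 17 windows (42.5%, against 2.27% of all genes). ENP2, NOC3 and UTP22 had neither, as did 84.2% of all genes. With the letters GATGAG and AAAATTTT instead, the shares were 85% and 87.5%, against 20.4% and 9.03% of all genes. Of the 19 PAC matches, 18 lay upstream of the start codon, at 83 to 221 bases from it (median 109.5), and the match of UTP4 lay within its coding sequence. The 50 RRPE matches lay 23 to 240 bases upstream (median 123), counting overlapping matches separately, since AAAAATTTTT holds 2. Among the UTP and ENP genes 11 of 20 had PAC and 16 had RRPE, and among the others 8 and 19 of 20. Of 46 further small-subunit factors, described below, 41.3% had PAC and 82.6% had RRPE. Of 51 further large-subunit factors the shares were 51% and 80.4%, so the elements were not particular to these 40 genes.

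The windows of the 4 called genes with the smallest p-values show the forms these elements take. They lie at chrXV:281449-281748 (minus strand) for TSR4, chrXII:1006128-1006427 (plus) for TSR2, chrXII:73097-73396 (minus) for RIX7 and chrXII:581722-582021 (minus) for UTP13. Each is written 5′ to 3′ on the gene's strand, from 250 bases before the start codon to base 50 of the coding sequence, and capitals mark PAC or RRPE on either strand. RIX7 holds both elements, with PAC in its reverse form CTCATCGC at 115 bases from the start. By the full letters UTP13 holds PAC alone, at 85 bases, while TSR4 and TSR2 hold RRPE alone, at 121 to 123 bases. TSR2 has a further RRPE run at 23 bases. The shorter letters are not marked: AAAATTTT also occurs in UTP13, and GATGAG, on either strand, in TSR4 and in the coding bases of TSR2.
TSR4: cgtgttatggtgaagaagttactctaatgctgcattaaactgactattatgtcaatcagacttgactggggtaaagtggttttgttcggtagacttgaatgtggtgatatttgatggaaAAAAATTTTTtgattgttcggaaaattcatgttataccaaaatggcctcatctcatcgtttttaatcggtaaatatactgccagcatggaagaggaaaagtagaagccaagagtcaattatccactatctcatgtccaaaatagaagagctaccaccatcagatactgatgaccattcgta
TSR2: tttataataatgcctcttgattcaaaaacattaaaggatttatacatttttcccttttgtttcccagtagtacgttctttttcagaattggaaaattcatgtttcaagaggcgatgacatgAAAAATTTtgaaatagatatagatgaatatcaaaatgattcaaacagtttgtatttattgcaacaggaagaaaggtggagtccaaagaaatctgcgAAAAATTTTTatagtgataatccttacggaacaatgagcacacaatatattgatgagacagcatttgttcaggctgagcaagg
RIX7: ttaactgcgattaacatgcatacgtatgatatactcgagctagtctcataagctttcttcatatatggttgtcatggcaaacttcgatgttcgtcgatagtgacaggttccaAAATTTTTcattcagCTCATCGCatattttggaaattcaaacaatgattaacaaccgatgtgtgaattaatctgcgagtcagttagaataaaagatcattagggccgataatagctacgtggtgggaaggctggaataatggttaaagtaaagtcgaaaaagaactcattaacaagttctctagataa
UTP13: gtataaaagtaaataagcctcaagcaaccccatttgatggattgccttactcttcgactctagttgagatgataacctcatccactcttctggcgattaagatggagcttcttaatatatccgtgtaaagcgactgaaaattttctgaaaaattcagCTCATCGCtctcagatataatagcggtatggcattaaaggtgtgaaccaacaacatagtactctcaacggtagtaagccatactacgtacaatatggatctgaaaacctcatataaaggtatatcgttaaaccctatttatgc

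**Figure D1:**
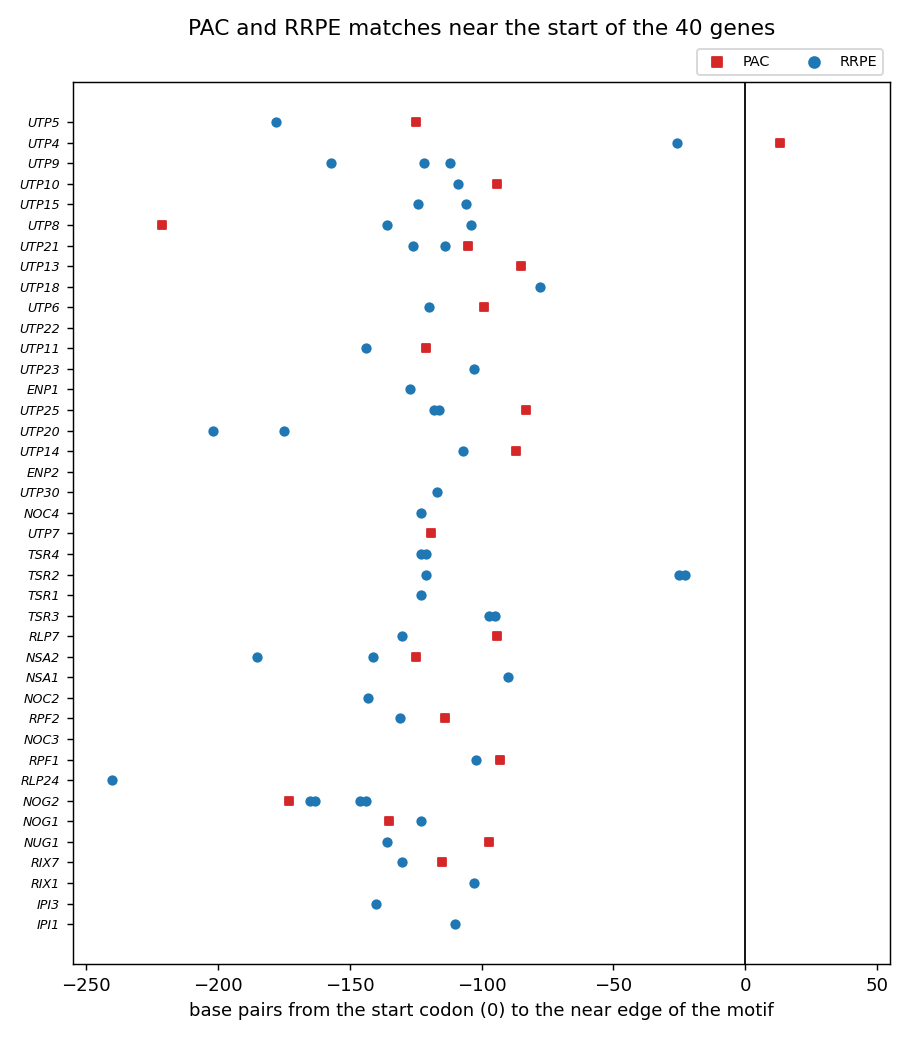
Positions of full-letter PAC (red squares) and RRPE (blue circles) matches in the window of each of the 40 genes. The x axis gives base pairs from the start codon at 0, and genes are grouped by role. Most matches lie between 80 and 150 bases upstream, and the rows of ENP2, NOC3 and UTP22 are empty.

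Calls in both directions fell in both classes of promoter. Of the 19 genes with the full letters of PAC, 2 were called higher and 2 lower (median log2 fold change -0.04). Of the 21 without them, 2 were higher and 3 lower (median -0.03). The shorter letters GATGAG occur in 34 of the 40 windows, so most of these 21 genes hold them. The 3 genes with neither element by the full letters were not called (median -0.08), and NOC3 among them holds AAAATTTT. A call is an edgeR adjusted p below 0.05, as described below. Of all features 21.2% were called higher and 20.7% lower, and the classes of promoter were not compared by a test.

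All 40 genes passed the filter on low counts, and the smallest count of any of them in any library was 132. Most of them did not pass the test between the strains. In bulk RNA, less RNA per cell and fewer cells that hold it cannot be told apart. RNA of NOC4, RPF1, RLP24 and UTP14 was higher in the deletion strain, RNA of TSR4, TSR2, RIX7, RIX1 and UTP13 was lower, and 31 were not called (edgeR quasi-likelihood test, Benjamini-Hochberg adjusted p below 0.05). The called share was 22.5%, against 41.9% of all features tested. Of all features 21.2% were called higher and 20.7% lower. An unadjusted p below 0.05 was found for 14 of the 40, against 3116 of the 6124 features. The median log2 fold change of the 40 genes was -0.03 (all features 0.01), with a range of -1.13 to 1.21. A change of 2-fold or more was fitted for 4 genes, or 10%, against 27.9% of all features, and 30 of 40 stayed under 1.5-fold. Among the 3848 features within the genes' own range of mean expression, 41.2% were called and 19.5% reached 2-fold. The CPM of the strains did not overlap for 21 genes, 10 with both deletion libraries above and 11 with both below, while 74.7% of all features showed no overlap. Standard errors ran from 0.18 to 0.32 (median 0.22). For 27 of the 31 uncalled genes the 95% interval lay within 2-fold in either direction. It reached past 2-fold for ENP1 (-1.10 to -0.05), UTP21 (-1.004 to -0.065), IPI1 (0.10 to 1.27) and UTP30 (-0.14 to 1.11).

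**Figure D2:**
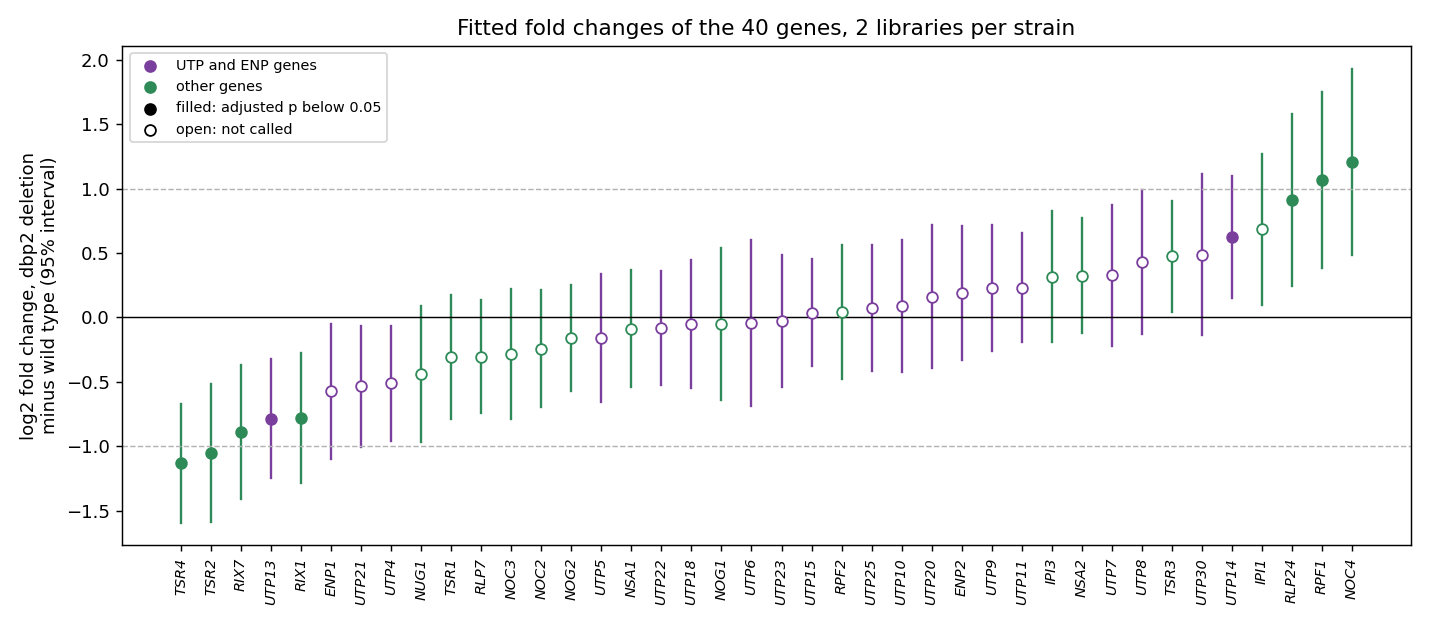
Log2 fold changes of the 40 genes (deletion minus wild type, 2 libraries per strain) with 95% intervals, sorted by size, UTP and ENP genes in purple and the others in green. Filled points passed the test and dashed lines mark 2-fold. The 9 filled points sit at both ends, from -1.13 for TSR4 to 1.21 for NOC4.

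The counts depended on single libraries and on scaling. Without wild type 2, 0 genes were called higher and 3 lower. Without deletion 2, 1 was called higher, and without deletion 3, 2 were called lower. With library totals in place of TMM factors the median of all features moved to 0.46 and that of the 40 genes to 0.41, and 15 of the 40 were then called higher and 2 lower. TSR4 and TSR2 passed in 12 of 12 alternative settings and NOC4 in 11.

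Levels per kb spanned 43.8-fold among the 40 genes in wild type and 31.3-fold in the deletion strain, with medians of 70.3 and 64.7 CPM per kb. NOG2, a GTPase of late pre-60S particles, was the highest with 443 and 429 CPM per kb in wild type against 428 and 352 in the deletion strain. Its level is uncertain: the snoRNA gene SNR191 (chromosome XIV, 721938 to 722211) lies in its intron on the same strand and is listed at 0 in all 4 libraries. All 8 snoRNA rows inside a protein-coding gene on the same strand were at 0, against 0 of 68 elsewhere. RLP7, which sits on the internal spacer of the pre-60S rRNA, came next with 237 and 242 CPM per kb in wild type against 215 and 173. TSR4 followed in wild type with 158 and 203 CPM per kb, a spread that overlapped that of NOG1 (190 and 159). The lowest by wild-type mean were UTP7 with 10.7 and 9.24 CPM per kb in wild type, IPI1 with 16.2 and 12.2, and NOC4 with 21.7 and 11.1. IPI1 and NOC4 overlapped in wild type, as did NOC4 with UTP6 (20.6 and 13.2) and UTP30 (20.9 and 15.0). NOG2, RLP7 and UTP7 kept the first, second and last place in the deletion strain, whereas TSR4 went from rank 3 to rank 10.

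**Figure D3:**
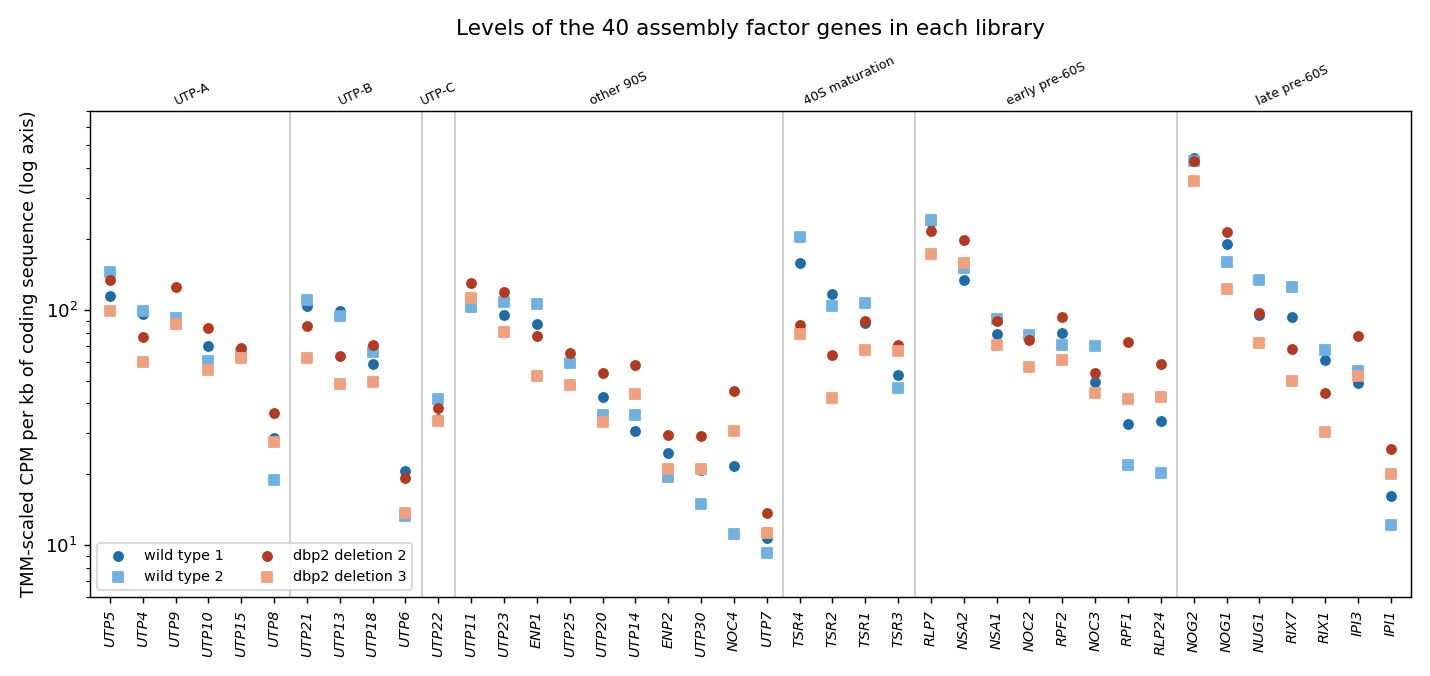
TMM-scaled CPM per kb of coding sequence (log axis) of each gene in each library, wild type in blue and deletion in red, grouped by role and sorted by the wild-type mean. NOG2 stands highest in all 4 libraries and UTP7 lowest, and TSR4, TSR2, UTP13, RIX7 and RIX1 show both deletion points below both wild-type points.

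Of the UTP-A genes, whose products bind the 5′ external spacer first, the group holds the 6 with UTP names, not every subunit. None of the 6 was called by edgeR or by DESeq2. In edgeR 41.9% of all features were called. The 6 UTP-A genes had a median log2 fold change of 0.06, and 1 had an unadjusted p below 0.05 in edgeR. Their wild-type level ran from UTP8 (28.5 and 19.0 CPM per kb) to UTP5 (115 and 145). UTP4 came closest to a call, with 223 and 231 CPM in wild type against 178 and 140 in the deletion libraries. Both deletion values lay below both wild-type values, and the adjusted p from edgeR's quasi-likelihood test was 0.0648 (log2 fold change -0.51, SE 0.20). UTP9, UTP10 and UTP15, scaffold proteins of the same module, and UTP5 overlapped between the strains, at log2 fold changes of -0.16 to 0.23. UTP8 had a log2 fold change of 0.43 (adjusted p = 0.190), which passed the test without wild type 1 (0.75, adjusted p = 0.0483).

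Of UTP-B, a module made mostly of WD-repeat proteins that joins next, the group holds the 4 genes with UTP names, not every subunit. Here UTP13 fell and the other 3 genes were not called. The called share was 25%, against 41.9% of all features. UTP13 (YLR222C) had 242 and 231 CPM in wild type against 156 and 118 in the deletion libraries. The wild-type values lay close together and above both deletion values, a 1.72-fold decrease (log2 fold change -0.78, SE 0.20, edgeR adjusted p = 0.0142). The call was lost without deletion 3 (-0.60, adjusted p = 0.107), with library totals and with abundance-dependent offsets. UTP21 had 292 and 311 CPM in wild type against 240 and 176 in the deletion libraries. It lay below without reaching the threshold (-0.53, SE 0.21, edgeR adjusted p = 0.0658) and passed it without deletion 2 (-0.78, adjusted p = 0.0383). UTP18 (-0.05) and UTP6 (-0.04) overlapped between the strains. Of these 4 genes UTP6 had the lowest level, with 20.6 and 13.2 CPM per kb in wild type, and UTP21 the highest. UTP22, a UTP-C subunit, had 128 and 155 CPM in wild type against 142 and 126 in the deletion libraries, so the strains overlapped (-0.08).

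Of the group's other 10 genes of the 90S particle, NOC4 and UTP14 rose and 8 were not called (median 0.21). The called share was 20%, against 41.9% of all features. NOC4 (YPR144C), the partner of Nop14 in the processome, had 36.0 and 18.4 CPM in wild type against 74.7 and 50.4 in the deletion libraries. Both deletion values lay above both wild-type values, although the wild-type values differed 1.95-fold from each other. The increase was 2.31-fold (log2 fold change 1.21, SE 0.32, edgeR adjusted p = 0.0153), and it was not called without wild type 2 (0.84, adjusted p = 0.0583). UTP14 (YML093W, chromosome XIII, 83090 to 85789, plus strand, 1 coding part), the activator of the helicase Dhr1 that unwinds U3 from the pre-rRNA, had 82.1 and 96.5 CPM in wild type against 156 and 118 in the deletion libraries. Its values did not overlap, and the increase was 1.54-fold (0.62, SE 0.21, edgeR adjusted p = 0.0399). This call was lost without wild type 1 (0.51), without wild type 2 (0.78) and without deletion 2 (0.41), at adjusted p of 0.152, 0.0533 and 0.284.

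ENP1, which stays with the particle until the pre-40S stage, had 126 and 153 CPM in wild type against 112 and 75.6 in the deletion libraries. Both deletion values lay below, at a log2 fold change of -0.57 (SE 0.23, edgeR adjusted p = 0.0756), and the gene was called without deletion 2 (-0.88, adjusted p = 0.0153). UTP30, a protein with a ribosomal L1 fold, had 17.2 and 12.4 CPM in wild type against 23.98 and 17.4 in the deletion libraries (0.49, adjusted p = 0.184). UTP7 (0.33) and UTP11 (0.23) also had both deletion values above wild type without a call. The WD-repeat gene ENP2, the large HEAT-repeat gene UTP20, UTP23, which acts on the snR30 snoRNA, and UTP25 overlapped between the strains, with log2 fold changes between -0.03 and 0.19. By wild-type mean UTP11 was the most abundant of these 10, at 105 and 102 CPM per kb, but UTP23 (95.3 and 108) and ENP1 (86.7 and 105) overlapped it, and UTP7 was the least abundant.

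The TSR genes act in small-subunit maturation and as chaperones of small-subunit proteins, and 2 of 4 fell. That is 50% called, against 41.9% of all features, and 20.7% of all features were called lower. TSR4 (YOL022C), a chaperone of the newly made ribosomal protein Rps2, had 194 and 249 CPM in wild type against 105 and 97.0 in the deletion libraries. The deletion values lay close together and far below both wild-type values. The decrease was 2.19-fold (log2 fold change -1.13, SE 0.20, edgeR adjusted p = 0.00248). TSR2 (YLR435W), which delivers Rps26, had 71.8 and 64.1 CPM in wild type against 39.6 and 26.04 in the deletion libraries. Its values did not overlap either, and the decrease was 2.07-fold (-1.05, SE 0.24, edgeR adjusted p = 0.00753). Leaving out each library in turn kept both calls, at log2 fold changes of -1.30 to -0.90 for TSR4 and -1.38 to -0.78 for TSR2. Both promoters, shown above, hold RRPE and not the full letters of PAC. TSR3, an enzyme that modifies 18S rRNA, lay the other way, with 49.7 and 43.7 CPM in wild type against 66.9 and 62.7 in the deletion libraries, but was not called (0.47, SE 0.19, edgeR adjusted p = 0.0724). TSR1, a GTPase-like factor of late pre-40S particles, overlapped between the strains (-0.31). In wild type TSR4 was the most and TSR3 the least abundant of the 4 per kb, with means 3.65-fold apart, and in the deletion strain the means of TSR4 and TSR2 were 1.55-fold apart.

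Among 8 genes of early, nucleolar pre-60S particles, RPF1 and RLP24 rose and 6 were not called (median -0.02). The called share was 25%, against 41.9% of all features. RPF1 (YHR088W, chromosome VIII, 281495 to 282382, plus strand, 1 coding part), which acts with Nsa1 and Mak16, had 29.1 and 19.5 CPM in wild type against 64.6 and 36.9 in the deletion libraries. Both deletion values lay above, but they differed from each other by 1.75-fold. The increase was 2.09-fold (log2 fold change 1.07, SE 0.30, edgeR adjusted p = 0.0203), and it failed the test without wild type 2 (0.84, adjusted p = 0.0961) and without deletion 2 (0.61, adjusted p = 0.162). RLP24 (YLR009W, chromosome XII, 166537 to 167136, plus strand, 1 coding part), the placeholder for ribosomal protein Rpl24, had 20.3 and 12.1 CPM in wild type against 35.1 and 25.4 in the deletion libraries. The groups did not overlap, and the increase was 1.88-fold (0.91, SE 0.30, edgeR adjusted p = 0.0346). It was not called without wild type 2 (0.62, adjusted p = 0.136), without deletion 2 (0.66, adjusted p = 0.170) or with abundance-dependent offsets.

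NSA2 had both deletion values above wild type without a call (0.33, adjusted p = 0.215; called with abundance-dependent offsets or library totals), and RLP7 (-0.30) and NOC2 (-0.24) had both below. NSA1 (-0.09), NOC3 (-0.28) and RPF2 (0.04), which brings in the 5S particle with Rrs1, overlapped between the strains. Noc2 pairs with Noc3, and neither gene passed the test. RLP7 was the most abundant of the 8 in wild type. RLP24 (33.8 and 20.1 CPM per kb) and RPF1 (32.8 and 21.97) were the least abundant and overlapped.

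Of the group's 7 genes of later pre-60S remodelling, RIX7 and RIX1 fell and 5 were not called (median -0.16). The called share was 28.6%, against 41.9% of all features. RIX7 (YLL034C), the AAA-ATPase that strips Nsa1 from the particle, had 235 and 314 CPM in wild type against 172 and 126 in the deletion libraries. All deletion values lay below wild type, a 1.85-fold decrease (log2 fold change -0.89, SE 0.23, edgeR adjusted p = 0.0141). Without wild type 2 the value was -0.62 (adjusted p = 0.101) and without deletion 3 -0.68 (adjusted p = 0.0653), and the call was also lost with library totals and with abundance-dependent offsets. RIX1 (YHR197W, chromosome VIII, 493896 to 496187, plus strand, 1 coding part), which names the Rix1 complex, had 140 and 154 CPM in wild type against 102 and 69.6 in the deletion libraries. Again both values were below, a 1.72-fold decrease (-0.78, SE 0.22, edgeR adjusted p = 0.0203), and it failed the test without wild type 2 (-0.67, adjusted p = 0.0905), without deletion 3 (-0.53, adjusted p = 0.148) and in the same pair of scalings.

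The partners of RIX1 in its complex lay on the other side of 0. IPI1 had 16.2 and 12.3 CPM in wild type against 25.6 and 20.1 in the deletion libraries, with no overlap. Its log2 fold change of 0.68 (SE 0.26) missed the threshold (edgeR adjusted p = 0.0609) and passed it in 6 of 12 alternatives, among them the authors' deposited table and the fit without wild type 1 (0.89, adjusted p = 0.0384). IPI3 had 81.6 and 91.7 CPM in wild type against 129 and 87.2 in the deletion libraries, which overlap (0.32, adjusted p = 0.282). Differences between the subunits were not tested. The GTPase genes NOG1 (-0.05), NOG2 (-0.16) and NUG1 (-0.44) were not called, and NUG1 had 149 and 209 CPM in wild type against 151 and 113.

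UTP and ENP genes were set against the others without a test. Among the 20 UTP and ENP genes 1 was higher and 1 lower, the median log2 fold change was 0.06, and none reached 2-fold. Of the other 20 genes, 3 were higher and 4 lower, the median was -0.12, and 4 reached 2-fold. The called shares of the 2 sets were 10% and 35%, both below the 41.9% of all features. Of all features 21.2% were called higher, 20.7% were called lower and 27.9% reached 2-fold. The summed CPM of the UTP and ENP genes divided by that of the others was 0.920 and 0.877 in wild type against 1.01 and 0.975 in the deletion libraries. Without NOG2, an alternative added after the data were seen, the ratio was 1.17 and 1.09 in wild type against 1.26 and 1.26 in the deletion libraries. The deletion libraries stood above both wild-type libraries in either form. By subunit, 2 of 25 small-subunit genes were higher and 3 lower (median 0.04), and 2 of 15 large-subunit genes were higher and 2 lower (median -0.09).

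**Figure D4:**
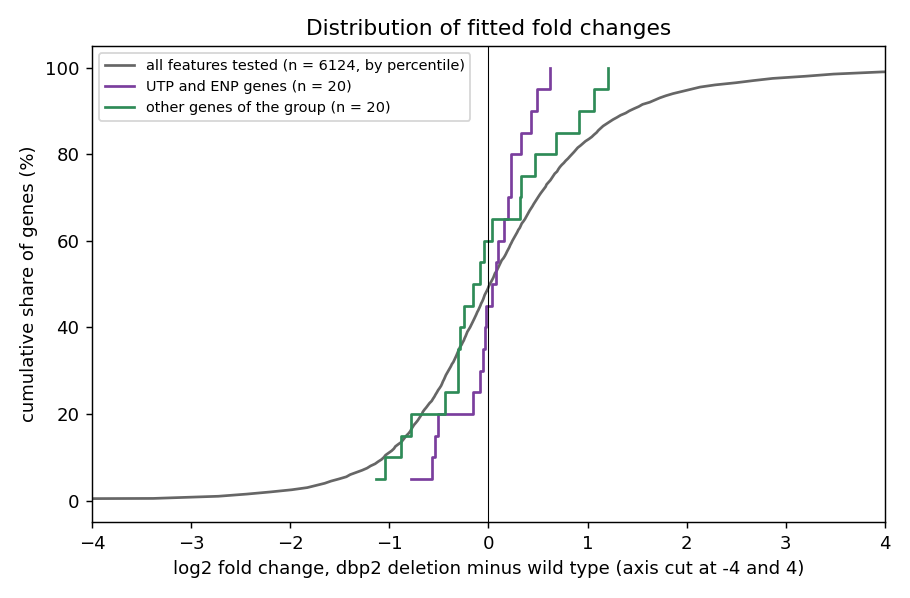
Cumulative distribution of log2 fold changes (deletion minus wild type) for all 6124 features in grey, UTP and ENP genes in purple and the other 20 genes in green. The UTP and ENP genes run from -0.78 to 0.62 and the other genes from -1.13 to 1.21.

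The less abundant genes of the group lay mostly above 0 and the more abundant mostly below. Of the 20 least abundant per kb over all 4 libraries, 15 had a positive log2 fold change, 4 were called higher and 1 lower (median 0.26). Of the 20 most abundant, 4 were positive, 0 were called higher and 4 lower (median -0.27). Of all features 3104 of 6124 were positive, and 21.2% were called higher and 20.7% lower, so 4 calls among 20 genes are near the share of all features. Among the 3848 features within the genes' own range of mean expression, 1705 were positive and 2143 negative. The difference between the 2 sets of genes was not tested, nor was whether the trend is particular to this group. With offsets that follow abundance, fitted over all features tested, the median of the 40 genes was 0.22. RIX7, RIX1, UTP13 and RLP24 were then not called, and NSA2 was called higher (0.60, edgeR adjusted p = 0.0337).

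Within the deletion strain the 40 genes moved together. All 40 had a higher CPM in deletion 2 than in deletion 3, with a median log2 ratio of 0.44 (range 0.09 to 0.81, from CPM + 0.5). Of all 6124 features 50.9% were higher in deletion 2 (median 0.01), and of the 3848 features in the same expression range 51.3% were. Between the wild-type libraries 22 of 40 were higher in wild type 2 (median 0.04). The summed CPM of the 40 genes was 5827 and 6076 in wild type, 6154 in deletion 2 and 4524 in deletion 3. Deletion 2 thus lay just above both wild-type libraries and deletion 3 below them. The median log2 fold change of the 40 genes was -0.28 without deletion 2 and 0.21 without deletion 3, so its sign rested on which deletion library was used. Deletion 2 was also the deeper library, and the part of depth in this difference was not tested.

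**Figure D5:**
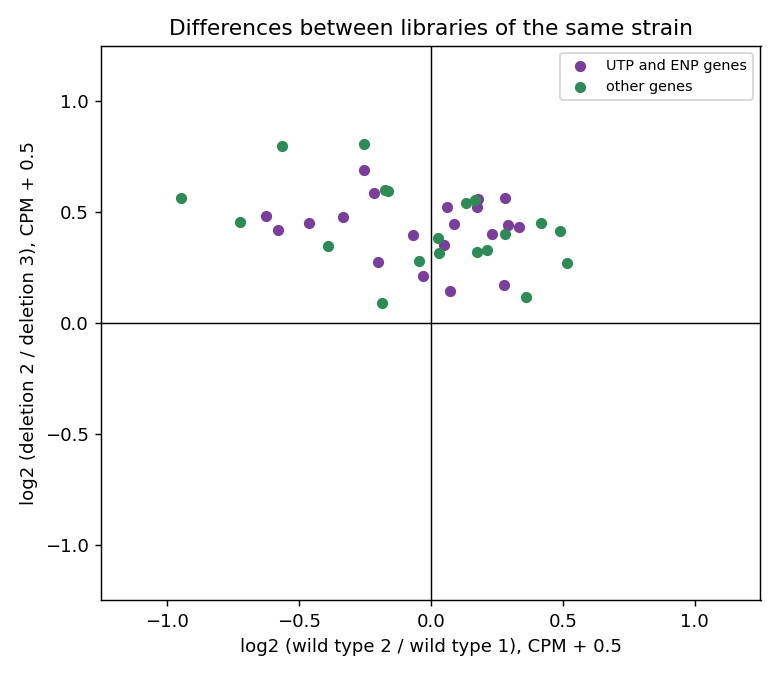
Log2 ratio of CPM + 0.5 between the deletion libraries (y axis, deletion 2 over deletion 3) and between the wild-type libraries (x axis, wild type 2 over wild type 1) for each gene. All 40 points lie above 0 on the y axis, and 22 lie to the right of 0 on the x axis.

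Other genes of the pathway, from lists chosen with earlier results of these data known, were called in both directions. Of 46 further small-subunit factors 6 were higher and 6 lower (26.1% called, median log2 fold change -0.0027), against 41.9% of all features. By smallest adjusted p these included FCF1, a PIN-domain protein of the processome (2.52-fold higher, edgeR adjusted p = 0.00156), and PNO1, a KH-domain protein of the pre-40S particle (2.32-fold higher, 0.00344). NOP56, a core protein of box C/D snoRNA particles, had a log2 fold change of -1.03 (adjusted p = 0.00327), and DIM1, the dimethylase of 18S rRNA, one of -0.90 (0.00567). Of 51 further large-subunit factors 6 were higher and 9 lower (29.4%, median -0.0047). NOP7, a subunit of the complex with Erb1 and Ytm1, changed by -1.22 on the log2 scale (adjusted p = 0.00136) and NIP7, an early 60S factor, by -1.04 (0.00345). BUD20, a shuttling zinc-finger factor, changed by 1.15 (0.00389) and RSA1 by 0.98 (0.00797). With library totals, 18 of the first list and 21 of the second were higher, and 1 and 2 lower. In deletion 2 against deletion 3, 45 of 46 and 50 of 51 were higher.

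Regulators of ribosome biogenesis transcription lay mostly on one side. The list also holds regulators of ribosomal protein genes, IFH1 and FHL1 among them. Of 8, 6 were higher and 0 lower (75%, median log2 fold change 1.19), while 21.2% of all features were called higher. This list was also chosen with earlier results of these data known, so its share is not an independent result. With abundance-dependent offsets 5 were higher (median 0.99). STB3, which binds RRPE, had a log2 fold change of 1.01 (edgeR adjusted p = 0.0666) and FHL1, a forkhead factor of ribosomal protein genes, one of -0.61 (adjusted p = 0.0884). TOD6, a repressor that binds PAC, had 176 and 162 counts in wild type against 3054 and 1022 in the deletion libraries, a 3.21-fold increase (log2 fold change 1.68, SE 0.35, edgeR adjusted p = 0.00525). Its relative DOT6 rose 2.35-fold (adjusted p = 0.0233), the kinase gene SCH9 2.14-fold (0.0284) and CRF1, a corepressor, 2.26-fold (0.0227). The activator SFP1 rose by a log2 fold change of 1.20 (adjusted p = 0.0180). IFH1, the coactivator of ribosomal protein genes, rose 2.40-fold (1.26, SE 0.21, adjusted p = 0.00157). Activators and repressors are thus both among the genes that rose. Of the 8, 7 were called higher with library totals, and 3 without wild type 2 or without deletion 2, and 1 was called lower without wild type 1.

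Some of the 40 genes lie beside other genes of the pathway. RIX1 lies 237 bases downstream of UTP9 on the same strand, with log2 fold changes of -0.78 and 0.23. UTP13 lies 461 bases downstream of IFH1 on the same strand, with -0.78 against 1.26, and RSA3 lies 293 bases beyond it (0.11, not called). NOC4 ends 689 bases from the end of RRP15, which was not called (0.56, adjusted p = 0.102). NSA2 and LCP5, which start 301 bases apart in opposite directions, had log2 fold changes of 0.33 and 0.09 and neither was called. In all, 7 of the 40 genes lie beside another gene of the group or of the 2 further lists of assembly factors.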

How the data were processed

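The data are a table of sense-strand read counts per feature, deposited by the authors as whole numbers with no scaling, per the file headers. Genome build R64 (sacCer3) and edgeR are named in the submitters' processing notes, and the sources used here do not give the aligner, the counter or the version of edgeR. The labels' protocols describe hot acid phenol extraction, repeated rRNA depletion and a strand-specific SOLiD library. A further deposited table, from the authors' edgeR run, gives log2 fold change, mean log2 CPM, p-value and adjusted p-value per feature, per the file headers, and was used as an alternative.

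Rows were matched to the R64 annotation by systematic name (6053), symbol (123) or synonym (3), and 955 had no match. The analysis used edgeR 4.0.16 (R 4.3.3) with filterByExpr, TMM factors, glmQLFit and glmQLFTest on all 4 libraries, with Benjamini-Hochberg adjustment over 6124 features. SE is the log2 fold change divided by the square root of F. In edgeR a call is an adjusted p below 0.05. A count of 0 allows up to 3 counts, 0.0833 to 0.276 CPM, counting error only. Alternatives were library totals, RLE factors, no filter, DESeq2 1.42.0, edgeR's exact and likelihood-ratio tests, the authors' table, abundance-dependent offsets (limma 3.58.1) and leaving out each library. Promoter windows and coordinates (1-based) come from the R64 genome. Genes named are all 40 members, called ones in full, and up to 4 per list by smallest adjusted p. The other 4 regulators and the neighbours of called genes or of NSA2 were named outside this rule, after their values were seen. Members, lists and roles were chosen with earlier results of these data known. MDN1 had no row.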

Additional observations from a re-analysis of the deposited data

How the results depend on the processing

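DESeq2, RLE factors, no filter, the exact and likelihood-ratio tests and the authors' deposited table kept all 9 calls, and their counts of calls and median fold changes stayed close to the reported ones. IPI1 was called in addition in the last 4. With library totals, 2502 features were called higher and 583 lower, with 15 and 2 of the 40 genes, 8 and 0 of the UTP and ENP genes, and 7 and 2 of the others, and the medians were 0.41, 0.50 and 0.32. The sign changed for NOC2 (0.20), NOC3 (0.16), NOG1 (0.39), NOG2 (0.28), NSA1 (0.36), NUG1 (0.0019), RLP7 (0.14), TSR1 (0.13), UTP18 (0.39), UTP22 (0.36), UTP23 (0.41), UTP5 (0.28) and UTP6 (0.41), none of them called as reported. With abundance-dependent offsets, lower calls were 2 of 40, 0 of the UTP and ENP genes and 2 of the others, whose median was 0.18, and the sign changed for NOC2 (0.079), NOG1 (0.39), NOG2 (0.39), NSA1 (0.17), RLP7 (0.075), TSR1 (0.071), UTP18 (0.18), UTP22 (0.22), UTP23 (0.12) and UTP5 (0.24). The cause was not tested.

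Leaving out each library gave 0 to 5 higher and 2 to 7 lower calls among the 40 genes, 0 to 1 and 0 to 3 among UTP and ENP genes, and 0 to 4 and 2 to 4 among the others. The median of the UTP and ENP genes ran from -0.20 to 0.25. A strain with 1 library left is assumed there to vary like the other. Log2 fold changes that changed sign ran from -0.069 to 0.42 for ENP2, -0.52 to 0.039 for NOC3, -0.51 to 0.30 for NOG1, -0.26 to 0.072 for NSA1, -0.29 to 0.31 for RPF2, -0.23 to 0.36 for UTP10, -0.037 to 0.11 for UTP15, -0.34 to 0.19 for UTP18, -0.23 to 0.47 for UTP20, -0.22 to 0.10 for UTP22, -0.34 to 0.23 for UTP23, -0.16 to 0.28 for UTP25, -0.39 to 0.062 for UTP5, -0.31 to 0.31 for UTP6 and -0.056 to 0.47 for UTP9. None of these genes was called as reported.

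No paired analysis was possible because the columns of the strains share only the number 2, and the labels number the deletion libraries differently. Groups of 2 libraries were not searched for a stray library. The smallest called change among the 40 genes was 1.54-fold.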
